A study of Rattus norvegicus with 6 samples.

Results

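The unfolded protein response and protein folding in the endoplasmic reticulum (ER) were followed through 35 named genes, all of them found among the 32883 genes of each count matrix. The matrices held single-cell RNA sequencing of pancreas from 6 male Wistar rats in 3 groups of 2. Young rats were studied at 2 months of age on a normal diet, old rats at 20 months after 18 months on a normal diet, and HFHF-old rats at 20 months after 18 months on a high-fat high-fructose (HFHF) diet. The pancreas was digested with collagenase P and passed over a density gradient, so the cells are those left after an islet isolation. The HFHF diet was given to old rats alone, so the effect of age was read without it.

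Secreted and membrane proteins fold in the ER, where chaperones such as Hspa5 (BiP) hold unfolded chains and disulphide isomerases join cysteines. When unfolded protein builds up, 3 sensors in the ER membrane signal to the nucleus. IRE1 (gene Ern1) splices the mRNA of Xbp1, PERK (Eif2ak3) slows translation and raises the factor ATF4, which acts through CHOP (Ddit3), and ATF6 is cut to release a transcription factor that raises chaperone genes. Cells that secrete much protein, such as acinar, islet and plasma cells, are known for a large ER and depend on these arms. Counts of 3′ transcript ends show neither Xbp1 splicing nor phosphorylation or cleavage of a sensor, so only transcript levels are described.

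The letters that the ATF6 and XBP1 arms are known to act through stand in some of these genes' promoters, and they are shown because they are the elements named for this response. The ER stress response element (ERSE, the letters CCAAT and CCACG with any 9 bases between them) was searched on both strands in the 300 bases from 250 before to 50 after each gene start of RefSeq (build GRCr8). It lay in the windows of 8 of the 29 members that had one, and in 0.0657% of the 33469 windows of all genes. Each site is given 5′ to 3′ in the orientation of the motif, with the fixed letters in capitals:
Hspa5, chr3:38452973-38452991, plus strand: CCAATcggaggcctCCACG
Hsp90b1, chr7:23012347-23012365, plus strand: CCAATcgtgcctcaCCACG
Hsp90b1, chr7:23012451-23012469, minus strand: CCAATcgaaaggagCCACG
Calr, chr19:40213135-40213153, minus strand: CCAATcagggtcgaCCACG
Canx, chr10:35158069-35158087, minus strand: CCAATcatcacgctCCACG
Creld2, chr7:121789239-121789257, minus strand: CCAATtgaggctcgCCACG
Dnajc3, chr15:102432534-102432552, plus strand: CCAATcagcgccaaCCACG
Ero1b, chr17:92941458-92941476, minus strand: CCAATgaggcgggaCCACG
Xbp1, chr14:84604558-84604576, plus strand: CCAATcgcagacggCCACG
The site of Hspa5 lay 43 to 25 bases before the gene start, and all 9 sites lay before their start. The shorter element ERSE-II (ATTGG, any base, then CCACG, on either strand, in 0.0508% of all windows) was found in 3 members, Dnajb11, Herpud1 and Hyou1. The XBP1 element UPRE (TGACGTGG, 0.595% of windows, overlapping an ERSE-II site in Hyou1) was found in Dnajc10 and Hyou1. The CHOP and ATF4 element searched as TGATGNAAT lay in 1.09% of all windows and in 0 members. For 6 members, Atf6, Derl1, Ern1, Manf, Pdia3 and Pdia6, no window was at hand.

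Levels were read in 8 classes of cells, with UMIs (unique molecular identifiers, 1 for each captured transcript) summed over the cells of a class in each rat and given as CPM, the UMIs per 1000000 UMIs of the sum. Each rat gave 320 to 507 acinar, 92 to 363 alpha, 51 to 349 beta and 30 to 306 PP (pancreatic polypeptide) cells in the young and old groups. In the HFHF-old group the acinar class rested on 51 cells of replicate 2, and alpha, beta and PP on 16, 175 and 39 cells of replicate 1. Macrophages numbered 28 and 13 in the HFHF-old rats, against 1044 to 5893 in the others, while fibroblasts (230 to 3341) and NK cells (368 to 8383) were present in all 6 rats. Acinar markers summed to 453691 to 548334 CPM in acinar cells and macrophage markers to 9329 to 18704 CPM in macrophages, and 0 of the 9 NK markers were at 0 in NK cells. The smallest NK sum held 2862161 UMIs, so that check of NK cells is weak. With clustering at resolution 2, HFHF-old replicate 1 had 6 NK cells rather than 882. Other classes moved as well, up or down. Acinar cells went from 343 to 80 in young replicate 1 and from 2 to 431 in HFHF-old replicate 1. Beta cells of old replicate 2 went from 349 to 704 and PP cells of young replicate 2 from 120 to 15. In HFHF-old replicate 2 the plasma-like cluster went from 273 to 26 cells. The plasma-like cluster carried its markers unevenly, with a sum of 269 to 3192 CPM, and in young replicate 2 the antibody joining chain Jchain was at 114 CPM. Clusters that came almost wholly from HFHF-old replicate 1 were left out of these classes. The 6 libraries held 7617 to 17724 barcodes and 77387928 to 166875258 UMIs, and each pair of libraries shared 20 to 69 barcodes. Free RNA was not subtracted, and the digestive enzyme Prss1 was at 26.5 to 3319 CPM in NK cells.

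The mean level of the 35 genes overlapped between plasma-like cells, fibroblasts and beta cells, and on a scale without hormone and digestive enzyme transcripts beta cells lay above the other islet classes and acinar cells. The mean of log2(CPM + 1) over the genes was 6.16 to 6.87 in the plasma-like cluster of the 6 rats, 5.81 to 6.52 in fibroblasts, 5.71 to 6.11 in macrophages and 5.77 to 5.96 in NK cells. Acinar cells had the lowest values, 3.98 to 5.04. Their cells held few genes, with medians of 288 to 434 in the 5 rats. Without hormones and enzymes, members took 0.245 to 0.456% of their UMIs, against 0.706% in the acinar cluster of HFHF-old replicate 1, left out here. The totals also differed between classes. Hormones took 57.7 to 82.9% of the UMIs of beta cells and listed digestive enzymes 45.4 to 54.8% of those of acinar cells. That leaves fewer UMIs for all other genes. As CPM of the remaining genes alone, the mean was 7.21, 7.52, 7.50, 7.34 and 7.60 in the 5 rats with beta cells, above every alpha (6.14 to 6.41), PP (6.35 to 6.71) and acinar (4.69 to 6.08) value. Alpha and PP cells overlapped on both scales. Every acinar value lay below every alpha and PP value without hormones and enzymes.

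**Figure D1:**
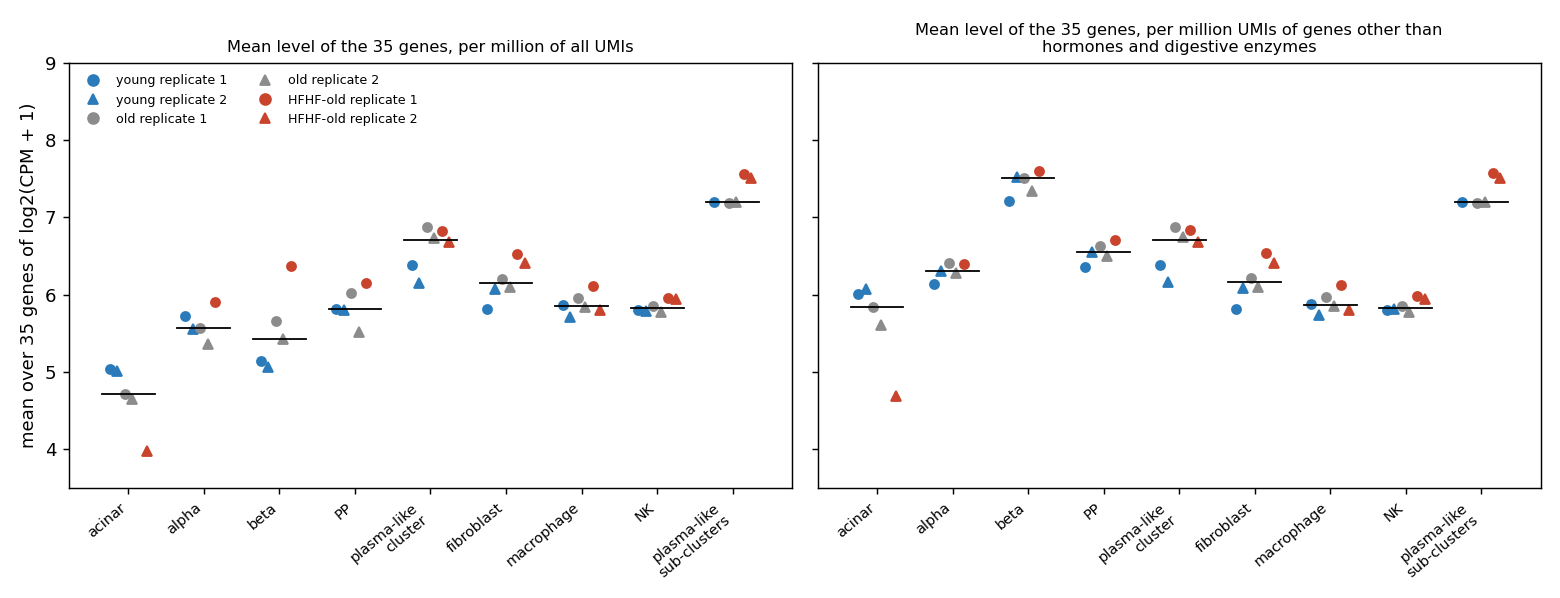
Mean over the 35 genes of log2(CPM + 1), 1 point for each rat (colour for group, shape for replicate), by class; the left panel uses all UMIs and the right panel leaves hormones and digestive enzymes out of the total, and black lines are medians over rats. Beta cells sit at 5.06 to 6.37 on the left and 7.21 to 7.60 on the right, while NK cells sit at 5.77 to 5.96 on the left.

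Because of these totals, classes were compared in 2 ways: by edgeR's quasi-likelihood test on all 44 sums with rat as a block, scaled by TMM, and by the direction in every rat on 3 scales (CPM, CPM without hormones and enzymes, and UMIs per cell). Calls needed a p under 0.05 after Benjamini-Hochberg adjustment over the 13858 genes tested, and a fold over 1.5. The direction in every rat was counted for the members alone, so no share of all genes stands beside those counts. NK cells, which are not known for bulk secretion of this kind, were the common reference.

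The plasma-like cluster, which was mixed as described below, carried more transcripts of 20 members, from sensors to chaperones and degradation factors, than NK cells did. Against NK cells 20 of 35 members were called higher (18.8% of all genes were) and 1 lower (15.3%), and 19 of the 20 were higher in all 6 rats on all 3 scales. Called or not, 32 of the 35 members were higher in all 6 rats per cell, and 24 on each CPM scale. The share of all genes in these positions was not taken. Median UMIs per cell were higher in this cluster than in NK cells in every rat but HFHF-old replicate 2 (7430 against 8822). Creld2, an ER factor of the ATF6 arm, was at 50.5, 36.1, 159, 195, 128 and 86.4 CPM in the plasma-like cluster (young 1 and 2, old 1 and 2, HFHF-old 1 and 2), against 14.2 to 22.7 CPM in NK cells, so the classes did not overlap. Its log2 fold change was 2.58 ± 0.34 (SE, adjusted p = 5.73e-08). Xbp1 (2.01), the co-chaperone Sdf2l1 (1.99), the degradation factor Herpud1 (1.95), the sensor Ern1 (1.59) and the chaperone Hsp90b1 (1.53) followed. Ern1 was at 134 to 441 CPM here and at 67.1 to 173 CPM in NK cells, and its lowest value lay in young replicate 2. Eif2ak3, the PERK gene, was among the 19, at 55.8 to 130 CPM against 29.0 to 44.9 CPM in NK cells (1.16). Its outputs Atf4, Ddit3, Trib3 and Ppp1r15a were not called, with log2 fold changes of -0.23, -0.52, -0.24 and 0.38.

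The plasma-like cluster was itself mixed, and plasma-like cells here means all cells of that cluster. Of its 2707 cells, 359 lay in the sub-clusters described next. Doublet scores marked 101 of 527 and 19 of 177 of its cells in young rats. In old rats they marked 60 of 322 and 313 of 1344, and in HFHF-old rats 37 of 64 and 34 of 273 cells of the cluster. Only sub-clusters of it, with 16 and 1 cells in young, 73 and 241 in old and 13 and 15 in HFHF-old rats, held high Jchain and Mzb1 (the joining chain and a chaperone of antibodies), and an immunoglobulin transcript took 30.0 to 44.5% of their UMIs in the 5 rats with at least 10 such cells. In these sub-clusters 31 of 35 members were called higher than in NK cells and 0 lower (13.6 and 28.6% of all genes were). The 4 not called were Ddit3, Trib3, Ero1b and Dnajc10, while Atf4, the factor of the PERK arm, was called there (1.14) though not in the whole cluster. Hsp90b1 was at 1488 to 3155 CPM, Creld2 at 350 to 572 CPM and Ern1 at 570 to 1635 CPM, each above every value of the whole cluster. Wfs1 was called higher than in NK cells (1.80) from 1 to 12 UMIs a rat in the sub-clusters, at 3.73 to 6.48 CPM in 4 rats and 0 of 244694 UMIs in HFHF-old replicate 1, which allows up to 12.3 CPM.

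The member with the largest fold between beta cells and alpha or PP cells was the oxidase Ero1b, which passes disulphide bonds to PDI and is known for its role in proinsulin folding. Ero1b was at 244 and 159 CPM in the young rats, 340 and 196 in the old and 563 in HFHF-old replicate 1 in beta cells. Alpha cells had 29.2, 10.8, 12.4, 9.11 and 30.5 CPM in the same rats, so the lowest beta value lay above the highest alpha value. The log2 fold change of alpha against beta was -5.32 ± 0.27, and of PP against beta -4.53 ± 0.26 (adjusted p = 3.82e-18 and 1.39e-16). It was also higher in beta than in NK cells (3.78 ± 0.23), where it was at 48.2 to 95.9 CPM.

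Several co-chaperones were lower in alpha than in beta cells too. The Hspa5 cofactor Sdf2l1 was at 18.5 to 56.7 CPM in beta, 10.9 to 16.6 in alpha and 9.37 to 28.0 in PP cells, and was called lower in both against beta (-2.88 and -2.60). Dnajb9, a target of XBP1, was at 90.4 to 169 CPM in beta and 57.6 to 131 in alpha cells, with -1.91 for alpha against beta, and Dnajc3, an inhibitor of PERK, gave -1.86. These 3 genes and Ero1b were lower in alpha cells in all 5 rats on all 3 scales. Trib3, a target of CHOP, was at 0.930 to 20.8 CPM in beta and at 0.202 to 1.24 CPM in alpha cells of 4 rats, from 1 to 3 UMIs each. In alpha cells of HFHF-old replicate 1 it held 0 of 327342 UMIs, which allows up to 9.16 CPM.

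The PERK gene itself ran the other way. Eif2ak3 was at 29.7 to 107 CPM in alpha and 5.35 to 30.2 CPM in beta cells, and the alpha value was higher in each of the 5 rats. Alpha against beta gave 0.73 ± 0.22 (adjusted p = 0.0125), which was no longer called without old replicate 2 (0.69). Ppp1r15a, which returns translation after PERK, gave 0.96 ± 0.23 and was at 22.5 to 85.5 CPM in alpha and 3.26 to 29.2 CPM in beta cells. Immediate early and heat shock genes were also higher in alpha cells in each of these rats. Without hormones and enzymes they summed to 5623 to 15278 CPM in alpha and 988 to 6270 CPM in beta cells. The part of those genes was not tested.

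As a list, the members were lower in alpha and PP than in beta cells relative to all genes, while the counts of calls moved with the median of all genes. Taking off that median removes most of what a change of scaling does, so agreement between scalings is no separate support, here or below. Under TMM, 28 of 35 members were called lower in alpha than in beta cells (11.5% of all genes were) and 2 higher (10.1%); with library size alone, 5 were called lower (2.58%) and 8 higher (66.5%), and the median over all genes moved from 0.00 to 1.15. Less the median of all genes, the members' median was -0.99 under TMM and -0.92 with library size alone. Hspa5 gave -1.0 under TMM and 0.24 with library size alone, which less the median of all genes is -1.0 and -0.91. PP against beta gave 21 lower (10.6%) and 1 higher (10.0%) under TMM and 3 lower (2.45%) and 15 higher (68.1%) with library size alone, with the members' median at -0.86 and -0.78 less that of all genes. PP and alpha cells differed in 4 members, all higher in PP (4.91% of all genes were higher and 4.39% lower): P4hb (0.75), Ero1b (0.79), Xbp1 (0.71) and Pdia6 (0.69). P4hb, a disulphide isomerase, was at 79.2 to 123 CPM in PP and 46.4 to 73.3 CPM in alpha cells, which did not overlap. The other 3 calls were lost without young replicate 1, young replicate 2, old replicate 1, old replicate 2 or HFHF-old replicate 1, each left out alone, when P4hb was still called. With clustering at resolution 2 the call of P4hb was lost as well (0.64).

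**Figure D2:**
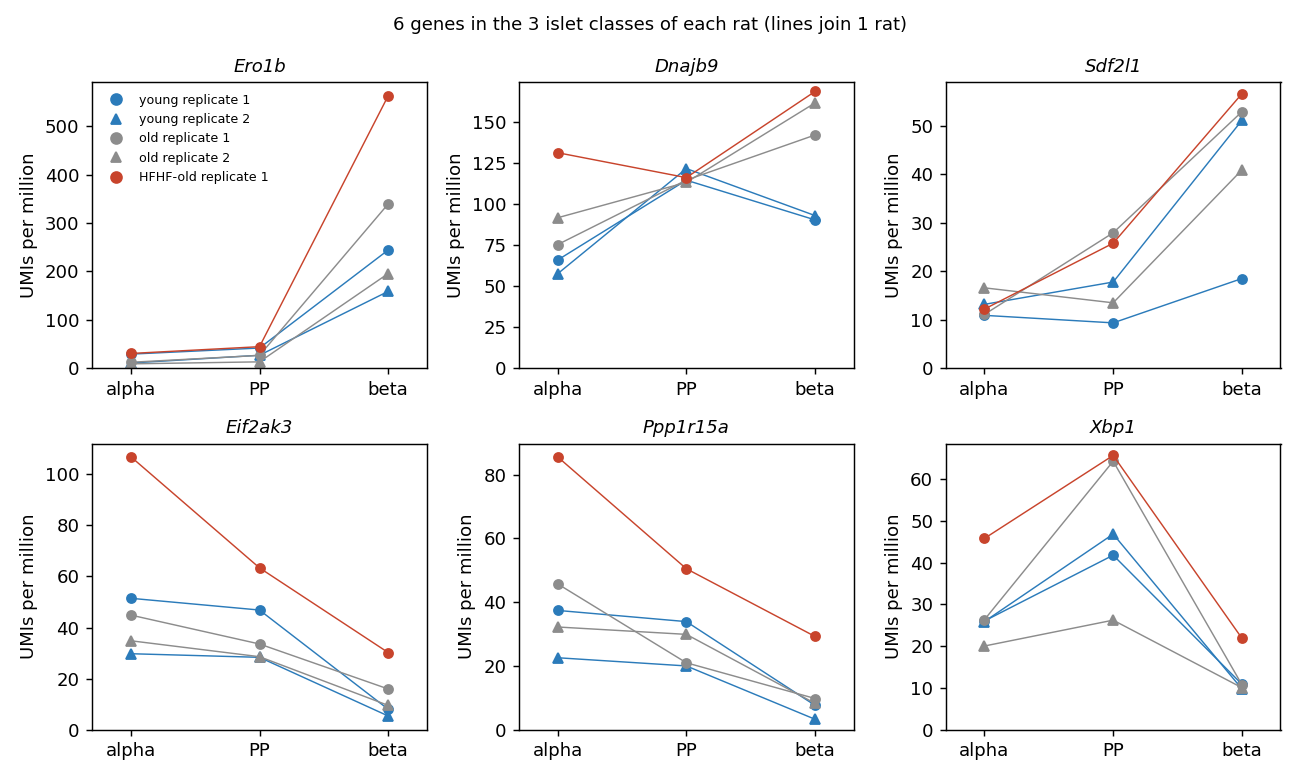
CPM of 6 genes in alpha, PP and beta cells, 1 line for each of the 5 rats with these cells (colour for group, shape for replicate). Ero1b is at 159 to 563 in beta and at most 44.6 in PP cells, Eif2ak3 and Ppp1r15a are lowest in beta cells in every rat, and Xbp1 is highest in PP cells in every rat. In every rat, 17 of 35 genes are higher in PP than in beta cells on CPM. Without hormones and enzymes 1 is, and in UMIs per cell 0 are. The share of all genes in these positions was not taken.

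Against NK cells, the islet classes shared the higher transcripts of Wfs1, an ER membrane protein whose loss is known to cause diabetes, and of Hyou1, Dnajb9, Pdia6, Manf and Sec61b, all higher in every rat on all 3 scales in alpha, beta and PP cells. None of these genes was particular to islet cells. All were called and higher in every rat on the 3 scales in plasma-like cells too, and Wfs1 also in fibroblasts. Per cell, 27 of 35 members were higher in every rat in alpha and in PP cells, and 32 in beta cells. Those counts have no share of all genes beside them. In the same rats median UMIs per cell were 9613 or more in the islet classes and at most 8608 in NK cells. In beta cells the log2 fold changes were 3.77 for Wfs1, 3.45 for Dnajb9, 2.99 for Hyou1, 2.78 for Pdia6, 2.5 for Manf and 2.44 for Sec61b. Wfs1 was at 6.17 to 21.8 CPM in beta cells and 2.10 to 3.71 CPM in NK cells. TMM called 27 members higher and 1 lower in beta cells (32.2 and 32.3% of all genes), 13 and 7 in alpha (30.3 and 31.6%) and 16 and 9 in PP cells (30.3 and 31.3%). With library size alone 7 were called higher and 12 lower in beta cells (15 and 67.5% of all genes), 7 and 12 in alpha (23.3 and 44.5%) and 10 and 9 in PP cells (23.8 and 42.8%). Less the median of all genes, the members' median was 1.46 and 1.43 in beta, 0.48 and 0.47 in alpha and 0.61 in PP cells under both scalings. Hspa5 was called higher in alpha (0.90) and PP cells (1.25) on the TMM scale and higher than in NK cells in all 5 rats on the 3 scales, though with library size alone the alpha call was lost (0.44). Atf6 (-1.69) was lower in alpha cells in every rat, and Trib3 (-3.05) in the 4 rats where it was counted.

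In acinar cells Xbp1 and P4hb had the largest folds over NK cells, but neither was particular to acinar cells. The plasma-like sub-clusters gave 4.65 for Xbp1, and P4hb was called higher in plasma-like, fibroblast and macrophage cells too. Xbp1, the factor that builds the secretory ER, was at 47.2, 39.9, 43.0, 52.0 and 35.4 CPM in the 5 rats with acinar cells (young 1 and 2, old 1 and 2, HFHF-old 2), against 7.57 to 15.5 CPM in NK cells, and the log2 fold change was 4.71 ± 0.24 (adjusted p = 2.45e-19). P4hb was at 159 to 279 CPM against 54.1 to 74.9 CPM (4.47 ± 0.20). Both were higher in all 5 rats on all 3 scales. The degradation genes Sel1l (3.63) and Herpud1 (3.26) were called higher by TMM, but Herpud1 at 35.4 to 118 CPM overlapped NK cells (44.8 to 60.1 CPM). Atf6 was lower (4.42 to 12 against 141 to 281 CPM; -1.67), as was Ern1 (4.15 to 11.4 against 67.1 to 173 CPM; -1.03), whose call was lost without young replicate 1 (-0.72), with clustering at resolution 2 (-0.44) and with the clusters of HFHF-old replicate 1 named (-0.48). Of all members, 27 were called higher (26.6% of all genes) and 3 lower (33.5%) under TMM, and 5 higher (6.47%) and 21 lower (72.7%) with library size alone, with the median of all genes at -0.23 and -2.68. Less that median, the members' median was 1.57 and 1.51. Hspa5 gave 1.27 and -1.22 in these fits, or 1.5 and 1.47 less the median of all genes, and its CPM of 61.9 to 127 lay below every NK value (225 to 325).

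Set directly against beta cells, acinar cells had 10 members called higher (20.7% of all genes) and 11 lower (28.5%) under TMM, and 5 higher (11.9%) and 22 lower (53.0%) with library size alone. All 11 lower genes were lower in each of the 4 rats with both classes on all 3 scales, led by Dnajb9 (-2.21) and Ero1b (-1.64). Of the 35 members, 33 were lower in all 4 rats per cell and 27 without hormones and enzymes, so those scales separate few genes. Xbp1 (2.80) and P4hb (2.97) were higher in all 4 rats on both CPM scales, but lower per cell in all 4, with median UMIs per cell of 2362 to 3822 in acinar and 24403 to 91125 in beta cells of these rats. Hspa5, at -0.62, was among the lower genes, but its call was lost without doublets (-0.42), without HFHF-old replicate 2 (-0.47) and without young replicate 1 (-0.52), among other settings.

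Fibroblasts, which export collagen, were higher than NK cells in 5 of the 6 listed disulphide enzymes (P4hb, Pdia3, Pdia4, Pdia6 and Dnajc10; 31.3% of all genes were) and lower in the other, Ero1b. P4hb, Pdia4 and Pdia6 were called higher in plasma-like cells too, and P4hb and Dnajc10 in macrophages. P4hb, which also serves collagen hydroxylation, was at 201 to 500 CPM (2.14 ± 0.17), Pdia4 at 56.6 to 123 CPM against 19.0 to 29.0 (1.76 ± 0.26) and the reductase Dnajc10 at 84.1 to 108 CPM against 25.1 to 37.0 (1.66 ± 0.11). Calr, a calcium-binding chaperone of glycoproteins, gave 0.83, while its partner Canx was not called (0.53). Ern1 (-1.42) and Ero1b (-1.89) were lower in all 6 rats. In total 12 members were called higher (31.3% of all genes) and 5 lower (29.5%), which is 34.3 and 14.3% of the members.

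Macrophages had 7 members called higher (27.6% of all genes) and 5 lower (25.6%), 20 and 14.3% of the members and below both shares of all genes. The mannosidase-like Edem1, which sends misfolded glycoproteins to degradation, was at 28.8 to 74.5 CPM against 13.1 to 21.3 CPM (1.57 ± 0.23), and P4hb (1.61), Dnajc10 (1.24) and Canx (0.85) were higher in every rat too. Ero1b (-2.27), Ern1 (-1.12) and Selenos (-1.05) were lower in every rat, and Trib3 (-2.48) in the 4 young and old rats. Wfs1 gave 2.25, although for Wfs1 and Trib3 both HFHF-old rats held 0 of 146095 and 0 of 107403 UMIs, which allows up to 20.5 and 27.9 CPM.

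**Figure D3:**
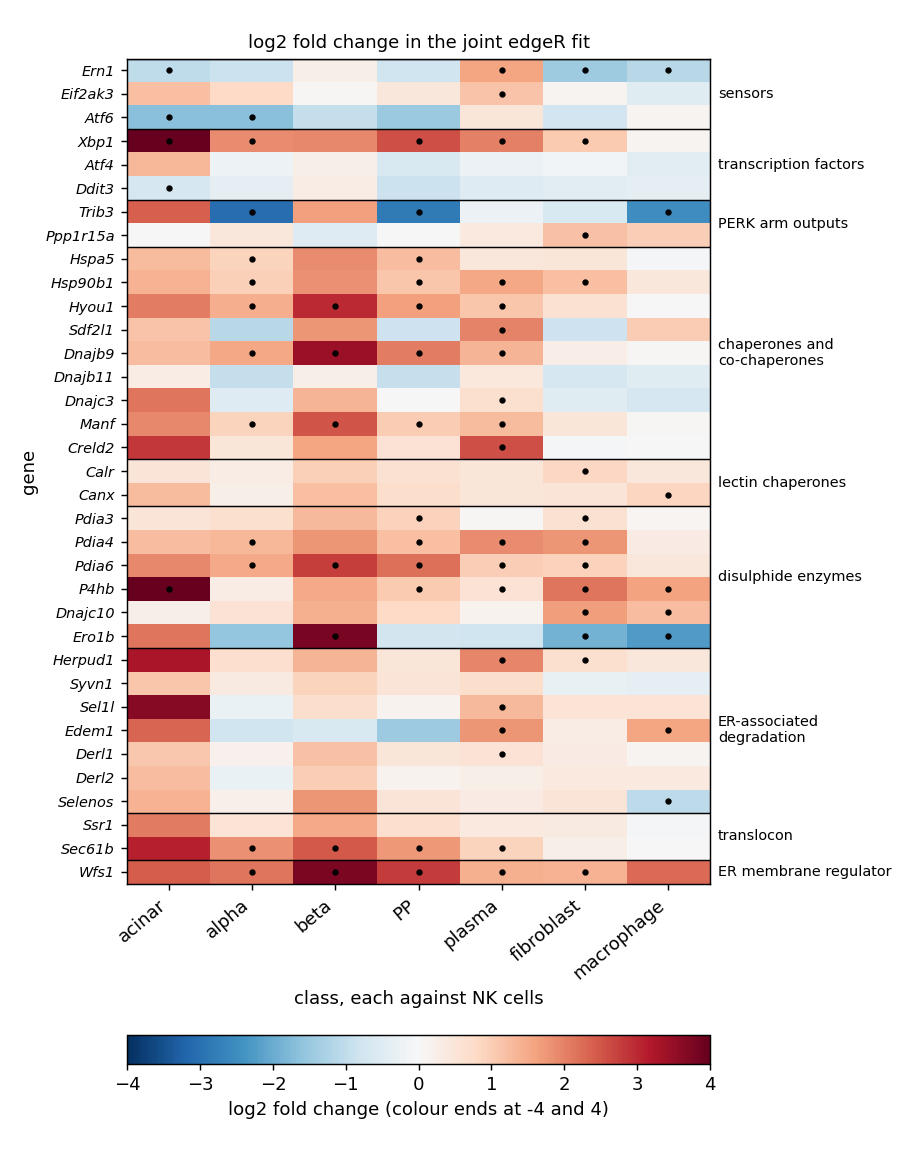
Log2 fold change of each of the 35 genes in 7 classes against NK cells in the joint edgeR fit (TMM), grouped by role; red is higher and blue lower, and a dot marks genes called and in the same direction in every rat (a sum with 0 UMIs taken as 0, as for Trib3 in alpha, PP and macrophage cells) on CPM, CPM without hormones and enzymes, and UMIs per cell. Acinar cells are darkest red at Xbp1 (4.71) and P4hb (4.47) and beta cells at Ero1b (3.78) and Wfs1 (3.77), and plasma-like cells hold 19 dots against 2 for acinar cells among the higher genes. In acinar cells 26 members are lower than in NK cells in every rat on CPM and 23 per cell, which leaves few for such a dot. By TMM alone 77.1% of members are called higher in acinar and 57.1% in plasma-like cells.

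By arm, levels are given as the median over rats of a list's mean log2(CPM + 1) without hormones and enzymes. Each list is given for part of the classes, which differ between lists, so the arms are not ranked against each other. The ATF6 list (Atf6 and 9 chaperone genes) was at 8.94 in plasma-like sub-clusters, 8.15 in beta cells, 7.69 in the plasma-like cluster, 6.70 in fibroblasts, 6.28 in NK and 6.15 in acinar cells. The IRE1 list (Ern1, Xbp1 and 5 targets) was at 7.94 in the sub-clusters, 7.42 in beta, 6.95 in plasma-like, 6.15 in acinar and 5.59 in macrophage cells. The PERK list (Eif2ak3, Atf4, Ddit3, Trib3, Ppp1r15a) was at 5.37 in the sub-clusters, 5.77 in beta, 5.69 in plasma-like, 5.66 in fibroblast, 5.63 in NK and 4.66 in acinar cells, and the ranges over rats of beta (5.13 to 6.91), fibroblast (5.16 to 6.32) and NK cells (5.24 to 5.98) overlapped. Immunoglobulin transcripts, at 30.0 to 44.5% of the UMIs of the sub-clusters, stayed in these totals. By the edgeR fit with TMM, Eif2ak3 (1.99), Atf4 (1.14) and Ppp1r15a (0.87) of the PERK list were called higher in the sub-clusters than in NK cells and Ddit3 and Trib3 were not called.

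Old and young rats were compared within each class to see what age changed. By edgeR, 0 members were called in any of the 8 classes, where the share of all genes called was 0.145% in acinar, 0.245% in alpha, 0.142% in beta, 0.112% in PP, 0.00737% in fibroblast, 0.00838% in macrophage and 0.0086% in NK cells and 0 in the plasma-like cluster. At an unadjusted p under 0.05 there were 20 of 35 members in the plasma-like cluster (6.33% of all genes), 4 in alpha cells (5.0%) and in fibroblasts (5.99%), 3 in macrophages (7.65%), 2 in PP (3.74%) and NK cells (5.04%) and 1 in acinar (5.33%) and beta cells (4.27%), of 34 or 35 tested. DESeq2 called 13 in the plasma-like cluster (0.782% of all genes were called higher and 0.281% lower) and 0 in the other classes.

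Ddit3, the CHOP gene of the PERK arm, had the most regular values with age. It was at 35.9 and 26.4 CPM in alpha cells of young and 55.6 and 40.1 of old rats, and at 18.9 and 8.61 against 24.4 and 47.8 CPM in beta cells. PP cells gave 23.1 and 21.8 against 40.5 and 33.3 CPM. Both old rats lay above both young rats in these islet classes, as they did in the plasma-like cluster, fibroblasts, macrophages and NK cells, where the values were 62.5 and 60.8 against 104 and 83.1 CPM. The share of genes in this position was 2.37% in alpha, 36.7% in beta, 5.51% in PP, 6.04% in plasma-like, 23.5% in fibroblast, 19.2% in macrophage and 10.1% in NK cells. Log2 fold changes were 1.05 ± 0.31 in alpha, 1.15 ± 0.45 in beta, 0.95 ± 0.36 in PP, 0.86 in plasma-like, 0.80 in fibroblast, 0.77 ± 0.22 in macrophage and 0.70 ± 0.20 in NK cells, with adjusted p from 0.411 to 1 by edgeR, so the gene was not called in any class. Acinar values of 4.23 and 7.87 against 3.77 and 20.7 CPM overlapped (0.98, and -0.50 without old replicate 2), and the plasma-like sub-clusters gave -0.36. Over all members, both old rats lay above both young rats in 1 of 34 tested in acinar (6.7% of all genes), 2 of 34 in alpha, 14 of 35 in beta, 3 of 34 in PP, 15 of 35 in fibroblast, 11 of 34 in macrophage and 5 of 35 in NK cells. They lay below in 17 in acinar (28.4%), 11 in alpha (42.7%), 0 in beta (2.75%), 4 in PP (21.4%), 2 in fibroblast (16.8%), 3 in macrophage (26.4%) and 2 in NK cells (21.4%). The classes of a rat share 1 library, so 8 classes are not 8 independent tests.

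Ppp1r15a, which undoes the PERK block on translation, gave 0.89 in fibroblasts (72.5 and 47.1 against 114 and 110 CPM), 0.89 in NK cells (33.3 and 17.5 against 49.3 and 40.2) and 0.83 in alpha cells (37.4 and 22.5 against 45.7 and 32.2, which overlap). Its adjusted p was 0.723 or higher in these. Immediate early and heat shock genes, which are known to rise with dissociation, were higher in both old rats in fibroblasts but overlapped between young and old in NK and alpha cells. Their summed level was 13443 and 8711 CPM in fibroblasts of young, 19134 and 18816 in those of old and 19509 and 24883 in those of HFHF-old rats, and 3386, 2009, 4366, 3192, 6815 and 4968 CPM in NK cells. In alpha cells it was 7567 and 3271 CPM in young and 4653 and 4298 CPM in old rats. Their part in the result was not tested.

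Other members with a small unadjusted p were each limited to 1 or a few classes, and none was called by edgeR. Dnajb9 was at 66.0 and 57.6 CPM in alpha cells of young and 75.4 and 91.7 of old rats (0.89), and Herpud1 at 54.1 and 36.0 against 74.1 and 66.5 CPM in PP cells (0.93). Calr was at 330 and 414 against 637 and 580 CPM in fibroblasts (0.71), and Ern1 at 32.6 and 25.8 against 51.8 and 47.2 CPM in macrophages (0.81). In each of these 4 the old rats lay above the young. Trib3 in acinar cells, at 5.64 and 10.2 against 1.88 and 4.67 CPM, had the opposite sign (-1.25).

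In the plasma-like cluster, both old rats lay above both young rats in all 9 genes listed as chaperones and co-chaperones (Hspa5, Hsp90b1, Hyou1, Sdf2l1, Dnajb9, Dnajb11, Dnajc3, Manf and Creld2), none of which was called by edgeR with its filter on low counts. With no such filter edgeR called all but Hspa5 and Hyou1, and DESeq2 called all but Hyou1. Both old rats lay below both young rats in the lectin chaperone Canx, the reductase Dnajc10 and the sensor Atf6. Creld2 was at 50.5 and 36.1 CPM in young and 159 and 195 CPM in old rats, and edgeR gave 2.39 ± 0.34 with an adjusted p of 0.193. Pdia6 was at 137 and 148 against 268 and 304 CPM (1.36 ± 0.27) and Dnajc3 at 91.8 and 85.7 against 161 and 145 CPM (1.14 ± 0.23), both with an adjusted p of 0.300. Both old rats lay above both young rats in 22 of 35 members (6.04% of all genes did) and below in 3 (44.3%), and the median log2 fold change was 0.86 against -0.02 over all genes, 0.50 against -0.37 with library size alone, 1.35 against 0.0094 with clustering at resolution 2 and -0.13 against 0.062 within the sub-clusters. The share of the cluster in plasma-like sub-clusters moved with it, at 3.04 and 0.565% in young, 22.7 and 17.9% in old and 20.3 and 5.49% in HFHF-old rats. The B cell marker Ms4a1 was at 80.9 and 27.3 CPM in young and 18.4 and 7.86 CPM in old rats of this cluster. Immediate early and heat shock genes summed to 3810 and 2282 CPM in young and 5498 and 3878 CPM in old rats. The part of either in the result was not tested. Within the sub-clusters, where young replicate 1 gave 16 cells and replicate 2 was left out with 1, 0 of 31 members were called by edgeR (0.0596% of the 3354 genes tested were) and 2 had an unadjusted p under 0.05 (5.64% of genes). The lone young rat is assumed there to vary like the rats of the other groups. There Dnajc3 gave -0.30, with 336 CPM in the young rat and 295 and 305 in the old rats, and Creld2 was at 350 against 377 and 548 CPM.

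**Figure D4:**
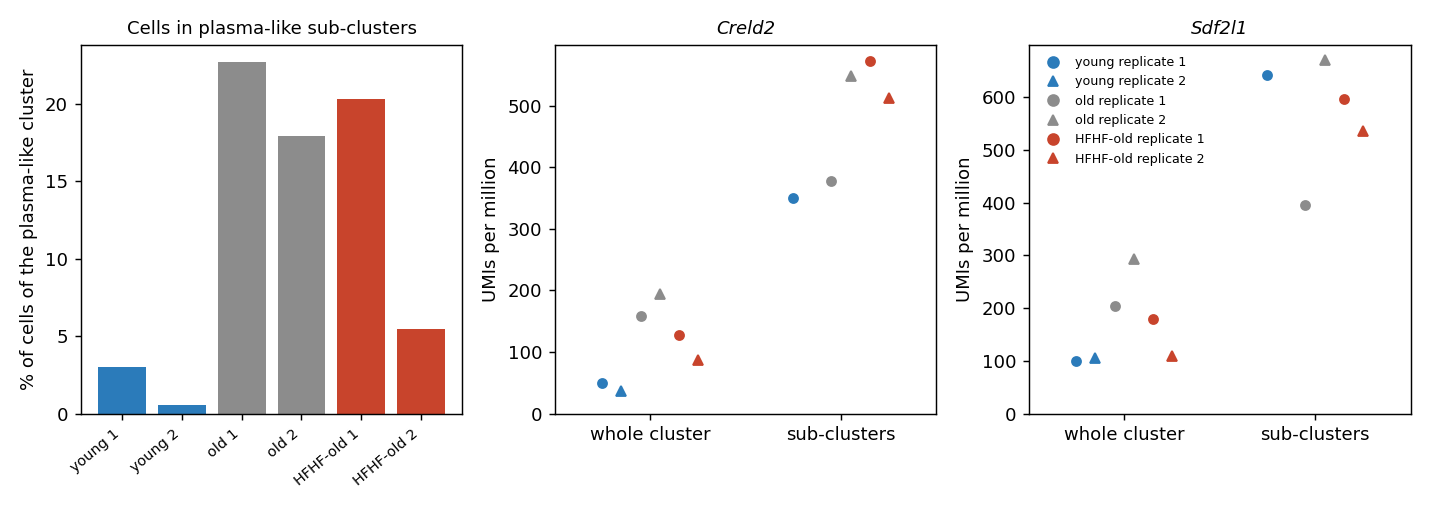
Left, percent of the plasma-like cluster's cells that lay in plasma-like sub-clusters in each rat (bars from 0); middle and right, CPM of Creld2 and Sdf2l1 in the whole cluster and in the sub-clusters, 1 point a rat. The young rats have 3.04 and 0.565% such cells, and Creld2 is at 36.1 to 195 in the whole cluster and 350 to 572 in the sub-clusters, where young replicate 2 with 1 cell is left out.

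The HFHF-old rats were set against the old rats for the effect of the diet. Again 0 members were called by edgeR in the 8 classes (0.083% of all genes were in acinar, 0.152% in alpha, 0.304% in beta and 0.0816% in PP cells, and 0 in the others). An unadjusted p under 0.05 was reached by 7 members in NK (13.2% of all genes) and in plasma-like cells (7.46%), 4 in macrophages (12.1%), 2 in alpha cells (10.4%), 1 in acinar cells (6.18%) and fibroblasts (3.19%) and 0 in beta (6.97%) and PP cells (8.33%), of 34 or 35 tested. DESeq2 called 2 members, Hspa5 and Creld2, higher in macrophages (2.15% of all genes were called higher and 0.428% lower).

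Hspa5 was the member with the smallest p in fibroblasts. It was at 239 and 295 CPM in young, 354 and 285 in old and 620 and 556 in HFHF-old rats, so both HFHF-old values lay above the other 4. The log2 fold change was 0.87 ± 0.25 (edgeR, adjusted p = 1.00). Of 869 fibroblasts in HFHF-old replicate 1, 291 were scored as doublets. The old rats had 59 of 1193 and 119 of 1120, and HFHF-old replicate 2 had 7 of 812. Of the 35 members, 23 lay above both old rats in both HFHF-old rats (16.1% of all genes) and 1 below (15.7%), among them Calr (637 and 580 against 907 and 795 CPM), Hsp90b1 (634 and 494 against 655 and 774) and Pdia4 (93.0 and 64.8 against 123 and 114). The median log2 fold change was 0.26. Ppp1r15a was next by p (114 and 110 against 173 and 183 CPM; 0.65). Summed macrophage markers in this class were 1133 and 1047 CPM in old and 4485 and 9.23 CPM in HFHF-old rats, and the immediate early and heat shock genes given above were at 19134 and 18816 CPM in old and 19509 and 24883 CPM in HFHF-old rats. Neither part was tested.

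Macrophages gave the same direction from few cells. Hspa5 was at 188 and 166 CPM in young, 229 and 174 in old and 568 and 438 in HFHF-old rats, the last from 83 and 47 UMIs (1.16 ± 0.28, adjusted p = 0.315 by edgeR). Creld2 was at 15.7 and 20.5 against 110 and 46.6 CPM, from 16 and 5 UMIs (2.00 ± 0.47, adjusted p = 0.315). With the macrophage cluster of HFHF-old replicate 1 (2125 cells) added to the class, Hspa5 gave 1.21 and Creld2 0.25, and without HFHF-old replicate 1 Creld2 gave 1.10. Hemoglobin and other erythroid markers summed to 36360 CPM in the 28 cells of HFHF-old replicate 1 and 11.1 to 237 CPM in the young and old rats. Immediate early and heat shock genes summed to 11013 and 15865 CPM in HFHF-old and 10135 and 9872 CPM in old rats, and the immunoglobulin transcript took 1.62% of the UMIs in HFHF-old replicate 1 and at most 0.522% in the others. The part of these in the result was not tested. Sel1l, which holds the degradation complex together, was at 119 and 76.7 against 41.1 and 46.6 CPM (-1.33), but gave -0.094 with that cluster added and -0.79 with clustering at resolution 2. The members whose HFHF-old values did not overlap the old ones were 11 above (16.1% of all genes) and 4 below (29.9%), 1 of which, Wfs1, was at 0 in both HFHF-old rats with limits above its old values (11.7 and 9.59 CPM), so that its position is not shown. In NK cells Hspa5 was at 248 and 225 against 325 and 286 CPM, and 19 members lay above (32.1%) and 5 below (18.1%), with Derl2 (-0.73), Sec61b (-0.81) and Atf6 (0.66) at the smallest p (edgeR, adjusted p = 0.361 for each).

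**Figure D5:**
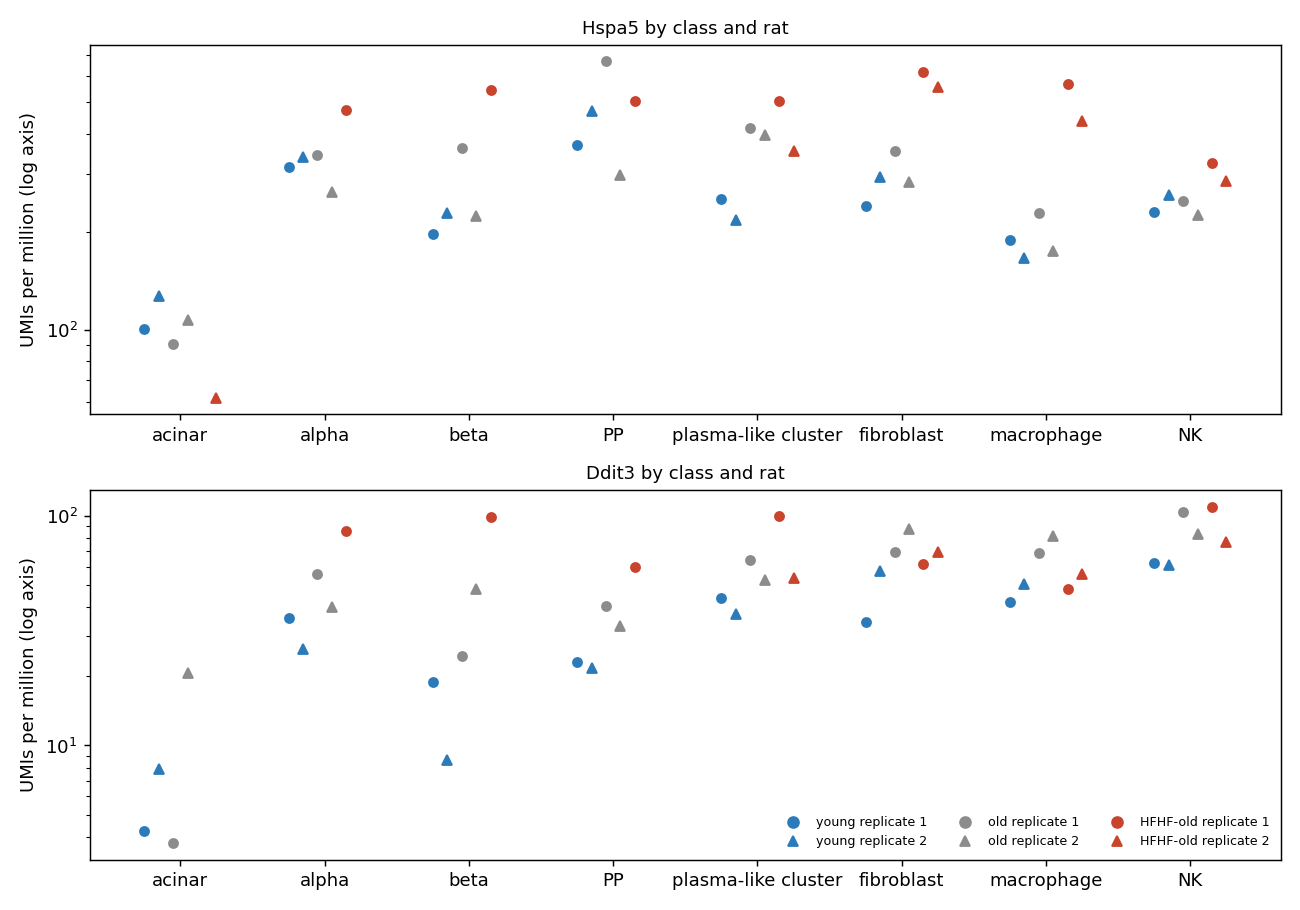
CPM of Hspa5 (top) and Ddit3 (bottom) on log axes by class, 1 point for each rat with at least 10 cells (colour for group, shape for replicate). Hspa5 lies above all young and old values in HFHF-old fibroblasts (620 and 556) and macrophages (568 and 438), and Ddit3 lies higher in old than in young rats in every class but acinar; Ddit3 of acinar cells in HFHF-old replicate 2 is 0 and not drawn.

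In the islet classes and acinar cells the HFHF-old group was 1 rat, so their errors and p take its spread from the young and old rats and do not show that another HFHF-old rat would give the same. In each islet class the hormone share of HFHF-old replicate 1 lay below that of both old rats. Hspa5 was at 361 and 223 CPM in old beta cells and 546 in HFHF-old replicate 1, Ddit3 at 24.4 and 47.8 against 98.5 CPM and Ero1b at 340 and 196 against 563 CPM. Such a position above both old rats was held by 31 of 35 members and by 84.6% of all genes in beta cells, 23 of 34 and 65.4% in alpha and 18 of 34 and 58.8% in PP cells. Below both old rats lay 2 members in beta (3.34% of all genes), 6 in alpha (21.7%) and 4 in PP cells (17.3%). Hormones took 73.3 and 74.4% of the UMIs of beta cells in old rats and 57.7% in HFHF-old replicate 1. In alpha cells they took 45.4 and 48.7 against 29.9%, and in PP cells 35.7 and 50.5 against 32.6%. Immediate early and heat shock genes summed to 4653 and 4298 against 10607 CPM in alpha cells. In PP cells they summed to 2949 and 2805 against 7048 CPM, and in beta cells to 734 and 576 against 2631 CPM. The part of either in these values was not tested. After TMM the median log2 fold change was -0.10 in beta, -0.15 in alpha and -0.05 in PP cells, while with library size alone it was 0.82, 0.59 and 0.42. In alpha cells of the same rat, 16 in number, Dnajb11 was at 6.11 (2 UMIs) against 13.6 and 16.8 CPM (-2.08 ± 0.81) and Derl2 at 3.05 (1 UMI) against 11.5 and 11.7 CPM (-2.67 ± 1.04), with an adjusted p of 0.436 by edgeR for both. Edem1 in beta cells was at 9.90 against 2.06 and 2.53 CPM (1.12). Acinar cells of HFHF-old replicate 2 had Hspa5 at 61.9 CPM, from 14 UMIs, against 90.5 and 107 in old rats, and Manf at 13.3 against 44.1 and 58.7 CPM (-1.68). With the acinar cluster of HFHF-old replicate 1 (633 cells, Hspa5 at 184 CPM) added, Manf gave -0.34 and Hspa5 0.022, against -0.41 for Hspa5 without it. In the 51 cells of replicate 2, 5 members, Ddit3, Dnajb9, Ppp1r15a, Wfs1 and Derl2, were not detected among 226013 UMIs, which allows up to 13.3 CPM each. In all, 6 of 34 acinar members lay above both old rats (20.4% of all genes) and 20 below (63.8%), with sums at 0 UMIs taken as 0. For 3 of the 20, Ddit3, Ppp1r15a and Derl2, the limit of 13.3 CPM lies above an old value, so that their position is not shown.

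In the plasma-like cluster the HFHF-old rats lay below the old ones in 10 of 35 members (8.58% of all genes) and above in 7 (40%). Manf, a secreted ER factor, was at 245 and 344 against 159 and 161 CPM (-1.21 ± 0.30), Selenos at 118 and 113 against 70.1 and 85.0 (-0.88 ± 0.24) and Sec61b at 343 and 455 against 203 and 260 (-1.11 ± 0.33), each with an adjusted p of 0.611 by edgeR. The share of the cluster in plasma-like sub-clusters, 22.7 and 17.9% in old and 20.3 and 5.49% in HFHF-old rats, stood beside these values. The B cell marker Pax5 was at 26.6 and 4.54 CPM in old and 10.7 and 246 CPM in HFHF-old rats. Immediate early and heat shock genes summed to 5498 and 3878 against 11912 and 5667 CPM, and the part of either was not tested. Within the sub-clusters Manf gave -0.44, Selenos -0.13 and Sec61b -0.54, and with clustering at resolution 2 Manf (0.32) and Selenos (0.37) had the opposite sign.

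Whether a contrast differed between classes was tested with an interaction term, and 0 members were called in the 8 tests (beta less alpha, acinar less beta, fibroblast less macrophage and macrophage less NK, for both contrasts), where 0 to 3.62% of all genes were called (for HFHF-old against old 0.00722% in beta less alpha, 0.0433% in acinar less beta and 0.7% in fibroblast less macrophage, and for old against young at most 0.0289%). The nearest was Sel1l, the scaffold of ER-associated degradation, for HFHF-old against old in macrophages less NK cells (-1.90 ± 0.56, adjusted p = 0.0575), which was -0.49 with the macrophage cluster of HFHF-old replicate 1 added. Beside the macrophage values given above, NK cells had 61.8 and 56.5 against 65.7 and 68 CPM. With no filter on low counts it was called, as were 2.3% of all genes in the same direction. In HFHF-old rats, acinar less beta set acinar cells of replicate 2 against beta cells of replicate 1, and beta less alpha rested on replicate 1. Those tests do not show that the classes agree.

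Of 80 other genes of these pathways, 74 could be tested between classes. Against NK cells under TMM, 53 were called higher and 5 lower in acinar (26.6 and 33.5% of all genes), 35 and 12 in alpha (30.3 and 31.6%), 52 and 7 in beta (32.2 and 32.3%) and 39 and 10 in PP cells (30.3 and 31.3%). In plasma-like cells 31 and 5 were called (18.8 and 15.3%), in fibroblasts 27 and 13 (31.3 and 29.5%) and in macrophages 18 and 15 (27.6 and 25.6%). With library size alone the counts were 11 and 44 in acinar (6.47 and 72.7%), 26 and 22 in alpha (23.3 and 44.5%), 15 and 36 in beta (15 and 67.5%), 32 and 18 in PP (23.8 and 42.8%), 29 and 3 in plasma-like (18.0 and 14.5%), 27 and 12 in fibroblast (31.7 and 27.7%) and 20 and 15 in macrophage cells (27.2 and 24.3%). In acinar cells that is 14.9% of the list higher and 59.5% lower, and in beta cells 20.3 and 48.6%. The thiol peroxidase Prdx4 (5.49) and asparagine synthetase Asns (5.42) had the smallest p in acinar cells, Pdia5 (4.67) and Erp29 (2.53) in plasma-like cells, and Creb3l1 (6.22), a stress transducer of collagen-secreting cells, with the retrieval receptor Kdelr3 (5.12) in fibroblasts. Alpha against beta gave 35 lower and 4 higher under TMM (11.5 and 10.1% of all genes) and 8 lower and 37 higher with library size alone (2.58 and 66.5%), with the signal peptidase subunit Spcs3 at -1.68. Between groups, 1 of these genes was called in 16 fits, Atf3, a stress factor downstream of ATF4, higher in beta cells (2.63, adjusted p = 0.022 by edgeR), where the HFHF-old group was 1 rat, so that the call sets that rat against the spread of the others. The call was lost with DESeq2 (2.57), without doublets (2.61), with the leading hormone at 1 in 2 of a cell's hormone UMIs (2.52), with clustering at resolution 2 (1.98) and with a replicate block (1.95). Immediate early and heat shock genes summed to 2631 CPM in beta cells of that rat and to 734 and 576 CPM in the old rats, and their part was not tested. In the interactions Sec24d, a coat protein of ER export, was called for HFHF-old against old in fibroblasts less macrophages (2.10) and in macrophages less NK cells (-2.08).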

How the data were processed

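Single-cell 3′ RNA sequencing (10x) of 6 rat pancreata was processed with Cell Ranger by the authors, who deposited filtered matrices of raw UMI counts per gene and barcode. The submitters' processing notes name the build Rnor_6.0. From the 78024 barcodes, cells with at least 200 genes, at most 25% mitochondrial UMIs and not in the top 1% of genes per cell were kept (75201). They were clustered (2000 variable genes, 10 components, 15 neighbours, leidenalg 0.10.2 at resolution 1) with 112 pathway genes, the members among them, held out, and clusters were named from listed markers; clusters with over 99% of their cells from 1 library stayed unnamed (the pseudocount of this rule was set after the clusters had been seen). Islet cells were assigned to the hormone with at least 2 in 3 of their hormone UMIs. The 8113 barcodes most like simulated doublets were kept, and left out in an alternative.

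UMI counts were summed per rat and class where at least 10 cells were present. Differences were tested with edgeR 4.0.16 (R 4.3.3; quasi-likelihood test, TMM, filterByExpr) over all genes, with the 3 groups in 1 fit per class, or all classes in 1 fit with rat as a block. A gene was called at an adjusted p under 0.05 and a fold over 1.5. DESeq2 1.42.0 was an alternative. The scripts were tested on simulated data. P-values rest on 2 rats a group at most: the HFHF-old group was 1 rat in acinar, alpha, beta and PP cells, as was the young group in the plasma-like sub-clusters, and a lone rat is assumed to vary like the rats of the other groups. The members and lists were chosen with earlier results of these data known. Genes were named as members, as the 3 members of smallest p in each class and contrast (one at 0 in a whole group was given without its fold), or as other pathway genes among the 5 of smallest p called in a fit. RefSeq promoter windows are of build GRCr8, and no coordinate was carried between builds.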

Additional observations from a re-analysis of the deposited data

Results flagged for a closer look

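Data outside the comparisons held values of these genes above the control rats. In 3 clusters that came almost wholly from HFHF-old replicate 1 and were left out of the classes, Hspa5 and Calr were above every young and old rat of the matching class. The acinar cluster (633 cells of that rat) had Hspa5 at 184 CPM and Calr at 136 CPM, and 24 of 34 members lay above every young and old rat, as did 40.5% of all genes tested. The fibroblast cluster (1925 cells) had Hspa5 at 663 CPM and Calr at 1031 CPM, with 25 of 35 members above (16.4% of all genes). The macrophage cluster (2125 cells) had Hspa5 at 565 CPM and Calr at 747 CPM, with 22 of 34 members above (27.2% of all genes). Immediate early and heat shock genes summed to 1927 CPM in the acinar cluster, against 291 to 835 CPM in young and old rats. In the macrophage cluster they were at 13652 against 6239 to 11521, and in the fibroblast cluster at 17858 against 8711 to 19134 CPM. These are values of 1 rat, and neither the difference nor the part of those genes in it was tested.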

How the results depend on the processing

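Most results kept their direction and their side of the limits under the alternatives, and the cause of the changes below was not tested. Deviations of same-numbered rats correlated at -0.20 to 0.15 in plasma-like, fibroblast, macrophage and NK cells. With 2 rats a group, these values cannot show whether same-numbered rats shared a batch. With a replicate block 0 members were called in every comparison of groups. With no filter on low counts 13 members were called for old against young in the plasma-like cluster (1.5% of all genes higher, 0.938% lower), 2 for HFHF-old against old there (0.77 and 1.04%), 3 in macrophages (1.97 and 0.875%) and 2 in NK cells (1.27 and 0.855%); DESeq2 called 13 and, in macrophages, 2. Leaving out 1 rat gave 0 to 1 in beta cells for either contrast (Trib3, without old replicate 1 or 2). Alpha against beta gave 13 calls with library size alone against 30. PP against alpha gave 1 call with no filter, 2 without doublets, 0 at resolution 2, 2 with the leading hormone at 1 in 2 rather than 2 in 3 of a cell's hormone UMIs, 2 with the clusters of 1 library named, and 1 to 4 without 1 rat. In the interactions 1 member was called with library size alone (Atf4, acinar less beta) and 1 with no filter and 1 with the plasma-like sub-clusters (Sel1l, macrophage less NK).

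With library size alone the median log2 fold change of old against young was -0.35 in acinar, -0.16 in alpha, 0.45 in beta, 0.50 in plasma-like and 0.017 in NK cells, and that of HFHF-old against old -0.54 in acinar, 0.59 in alpha, 0.82 in beta, 0.42 in PP, -0.056 in plasma-like, 0.44 in macrophage and 0.17 in NK cells. Without 1 rat the old against young median ran from -0.31 to 0.15 in acinar, 0.015 to 0.43 in alpha, -0.13 to 0.41 in beta, -0.049 to 0.42 in PP, 0.87 to 1.10 in plasma-like and 0.0088 to 0.19 in NK cells, and the HFHF-old against old median from -0.41 to 0.012 in acinar, -0.13 to 0.34 in macrophage and 0.0021 to 0.092 in NK cells. A pseudocount of 10 CPM moved the mean level to 5.33 in acinar, 6.02 in alpha, 6.23 in PP, 6.46 in fibroblast, 6.27 in macrophage and 6.17 in NK cells, and leaving hormones and enzymes out to 5.64 in acinar, 6.31 in alpha, 7.43 in beta and 6.55 in PP cells. Direction turned for Hspa5 with library size alone (0.24 for alpha against beta, -1.22 for acinar against NK, where the median of all genes was 1.15 and -2.68), for Ero1b (0.18), Atf4 (1.14), Ddit3 (0.29) and Trib3 (0.047) of plasma-like against NK and Ddit3 (-0.36) and Dnajc3 (-0.30, old against young) with the sub-clusters, for Manf (0.32) and Selenos (0.37) in plasma-like HFHF-old against old at resolution 2, where Atf4 of plasma-like against NK gave 0.080, for Trib3 there without doublets (0.035), and for Ddit3 in acinar cells of old against young rats without old replicate 2 (-0.50, in a range over left-out rats of -0.50 to 1.89).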
